A study of Mus musculus with 6 samples.

Results

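The genes described here are the nuclear genes of respiratory complexes II, III and V, that is succinate dehydrogenase, the cytochrome bc1 complex and ATP synthase, with their assembly factors. They were chosen by symbol, with earlier results of these data known. The rule took the rows of the expression table whose symbol begins with Atp5, Uqcr, Uqcc, Sdha to Sdhd or Sdhaf. It also took Cyc1, Bcs1l, Atpaf1 and Atpaf2. The rule found 40 of 16179 genes: 8 of complex II, 13 of complex III and 19 of complex V. The 40 genes fall into 28 subunit genes, 10 assembly factor genes, and Atp5s and Atp5sl, which carry the ATP synthase name but are not established subunits. Respiratory subunits encoded in the mitochondrial genome are outside the rule.

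RNA was sequenced from hippocampal microglia of male mice 10 months old, strain B6.129S4(FVB)-Grntm1.1Far/Mmja, in which the progranulin gene Grn is knocked out. Live CD11b+CD45lo cells, about 10000 a sample, were sorted from pooled hippocampi of 2 mice by their staining with BODIPY, a dye for neutral lipid, into cells poor in lipid droplets, here BODIPY-low, and cells rich in them, here BODIPY-high. Each group has 3 libraries, named low 1 to low 3 and high 1 to high 3 after the replicate numbers in the labels. All 6 come from knockout mice, and wild-type microglia were not analysed here. The comparison asks how droplet-rich microglia differ in RNA from droplet-poor microglia of the same genotype. Whether the same pool of mice gave both a low and a high library is not stated in the labels. The p-values cover only the spread between the 6 libraries, which may be technical in part.

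Complex II oxidises succinate in the matrix and passes the electrons to coenzyme Q. Complex III takes them from reduced coenzyme Q to cytochrome c and pumps protons across the inner mitochondrial membrane. Complex V lets protons return through a rotating ring in the membrane, and the rotation drives ATP synthesis in its catalytic head, while a peripheral stalk holds the head still. Microglia, the resident macrophages of the brain, make ATP by this route and by glycolysis.

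Library totals ran from 24982215 to 34899425 reads. Grn gave 677 ± 290.4 and 913 ± 614 (SD, n = 3 each, BODIPY-low and BODIPY-high) normalised reads, and its counts do not show whether they fall in the deleted part of the gene. All 10 markers of microglia were detected, at 5.32% to 6.65% of the reads of a library, with 3 of 10 lower in BODIPY-high libraries. Markers of choroid plexus epithelium were higher for 10 of 10, at 0.0137% to 0.0658% of the reads of a BODIPY-low library and 0.540% to 0.963% of those of a BODIPY-high one. Neutrophil markers were lower for 9 of 10, at 0.109% to 0.277% of the reads of a BODIPY-low library and 0.000713% to 0.00811% of those of a BODIPY-high one. Of 6 tested monocyte markers 4 were lower, at 0.0227% to 0.0463% and 0.00155% to 0.00464% of the reads for the 8 in the table. These marker genes moved with the groups, so with every result below, and their part in those results was not tested. In bulk RNA, fewer cells of a type and less RNA per cell cannot be told apart.

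All 40 genes were expressed well above the limit for testing, a mean of 10 normalised reads, the lowest at a mean of 73.7. A normalised read is a read count divided by the size factor of its library, and values in the libraries are given below in the order of replicates 1, 2 and 3. A gene was called where the adjusted p of limma, over 12821 genes, was below 0.05, and the difference is BODIPY-high minus BODIPY-low on the log2(value + 1) scale. Of the 40 genes 17 rose in BODIPY-high libraries and 0 fell (42.5% higher). Across all tested genes 9.79% were called higher and 3.52% lower. For 23 of the 40 genes the lowest high library exceeded the highest low one, against 18.0% of all tested genes. The difference was above 0 for 39 of 40, against 48.1% of all tested genes, and its median was 0.47, against -0.01.

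The 40 genes together took 0.286%, 0.257% and 0.270% of all reads in BODIPY-low libraries and 0.359%, 0.374% and 0.407% in BODIPY-high libraries. The 2 groups of shares did not overlap. Library low 1 had the highest share of its group for these genes and also for the microglia, choroid plexus, neutrophil and monocyte markers. The median difference was 0.43 for complex II, 0.45 for complex III and 0.59 for complex V, and differences between the complexes were not tested.

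**Figure D1:**
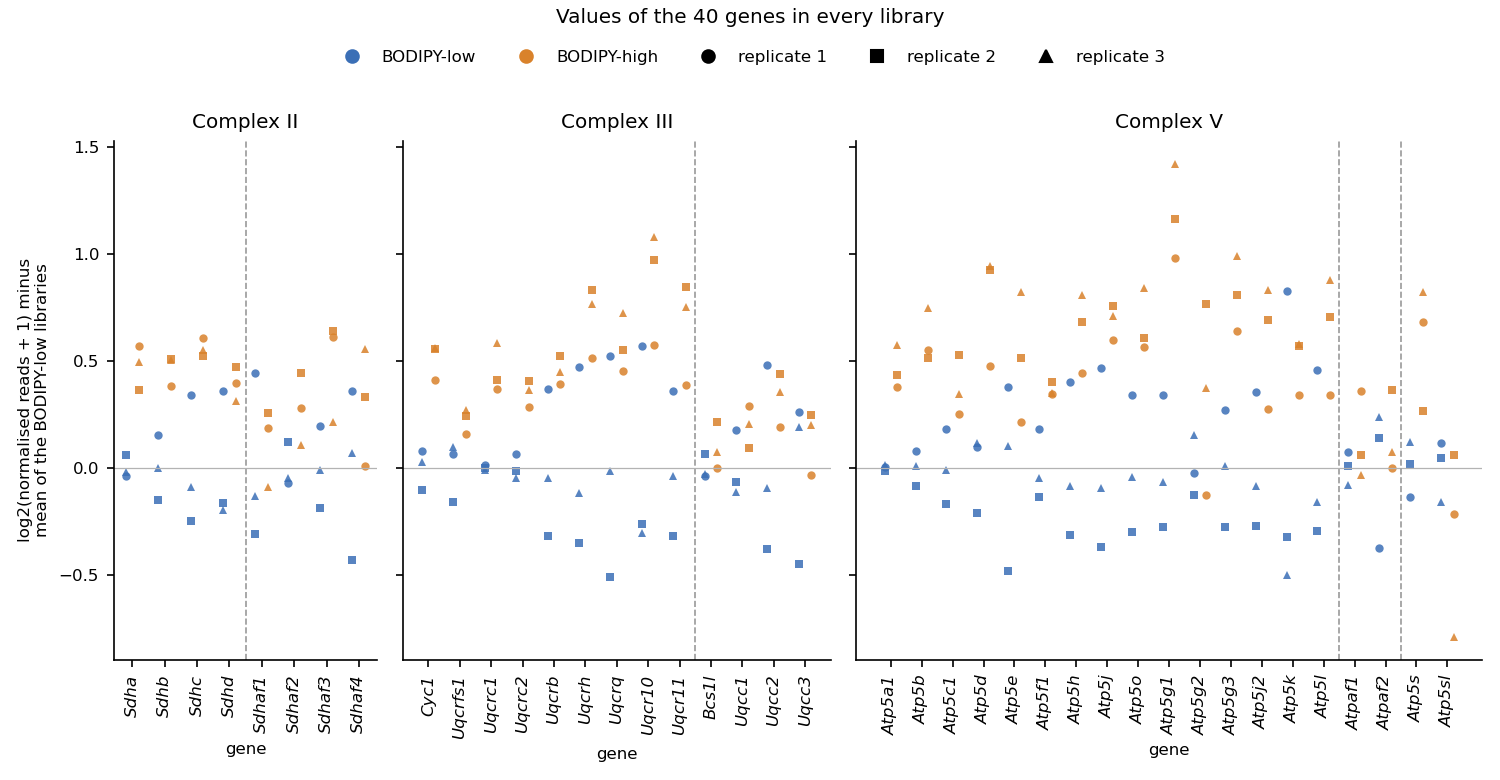
log2(normalised reads + 1) of the 40 genes in each of the 6 libraries, minus the mean of the 3 BODIPY-low libraries of the same gene, by complex. Colour marks the group and the shape of a point the replicate. Dashed lines part subunits, assembly factors and the pair of genes named for ATP synthase only. For 23 genes the groups do not overlap, with high above low, and low 1 is the highest of its group for most subunits.

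All calls fell on subunits. Of 28 subunit genes 17 rose, with a median difference of 0.54, and of 10 assembly factor genes 0 rose or fell, with a median of 0.17. None of the assembly factors reached an unadjusted p below 0.05 in limma (0 of 10, against 27.1% of all tested genes), and edgeR and DESeq2 called 0 as well. Assembly factors were less precisely measured: their median standard error was 0.20 against 0.16. The 95% intervals of 10 of 10 assembly factors held 0, and those of 7 of 10 also held the subunit median of 0.54, so a difference of that size was not shown to be absent. Assembly factors were also the less abundant genes, with means up to 1292. Of the 11 subunits with a mean no higher than that, a limit set after the values were seen, 3 rose and the median was 0.60. The median transcript lengths of these subunits ran from 321.5 to 838 bases. Most assembly factors were longer, up to 4323 bases for Sdhaf3, though Uqcc2 had 452, and length was not matched. The difference between subunits and assembly factors was itself not tested.

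**Figure D2:**
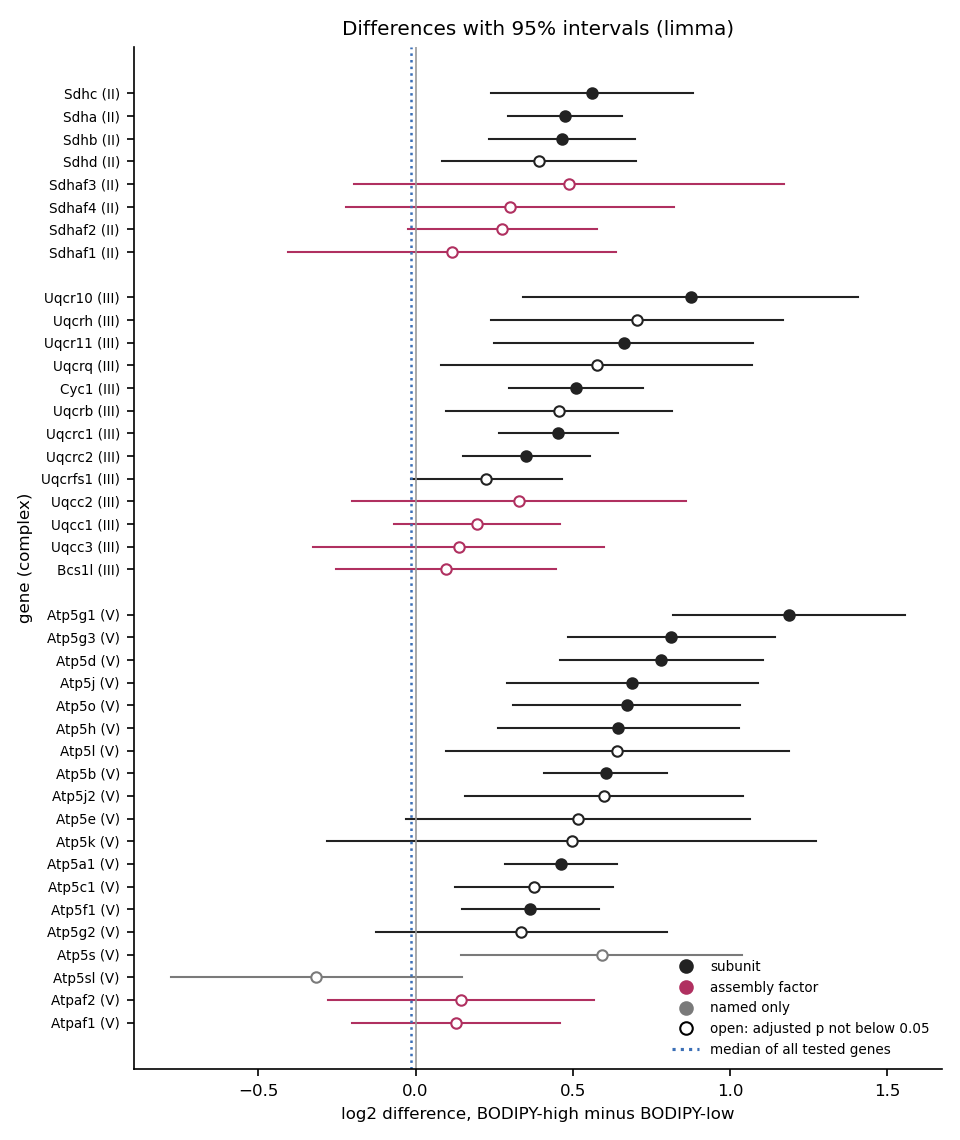
log2 difference, BODIPY-high minus BODIPY-low, of each of the 40 genes with its 95% interval from limma. Filled points have an adjusted p below 0.05. The dotted line is the median of all tested genes, -0.01. The 17 filled points are all subunits, and the intervals of the 10 assembly factors cross 0.

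In complex II, 3 of 4 subunit genes rose and none of the 4 assembly factor genes was called. Sdha, the flavoprotein that oxidises succinate (GRCm38 chr13:74322254-74350280, minus strand), gave 9536, 10195 and 9665 normalised reads in the low libraries and 14521, 12613 and 13797 in the high ones. Each of the 3 high libraries exceeded each of the 3 low ones, and Sdha rose by 0.48 (SE 0.08, limma adjusted p = 0.00353). Sdhb, the iron-sulfur subunit that carries the electrons onward, gave 2301, 1858 and 2063 normalised reads in the low libraries and 2689.8, 2939 and 2933 in the high ones. Its groups did not overlap, and it rose by 0.46 (SE 0.11, limma adjusted p = 0.0144). Sdhc, 1 of the pair of membrane anchors that bind coenzyme Q, gave 1502, 996 and 1113 normalised reads in the low libraries and 1808, 1703 and 1734 in the high ones. Library low 1 stood closest to the BODIPY-high libraries without overlap, and Sdhc rose by 0.56 (SE 0.15, limma adjusted p = 0.0278). Sdhd, the other anchor, gave 3422, 2383 and 2329 normalised reads in the low libraries and 3517, 3696 and 3314 in the high ones. Here low 1 exceeded high 3, and the difference was not called (0.39, SE 0.14, limma adjusted p = 0.0921). With low 1 left out, Sdhd was called (0.57, adjusted p = 0.00499), as it was with the replicate number as a block (0.0355).

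Sdhaf1 and Sdhaf3 are known for helping the iron-sulfur subunit mature, and Sdhaf2 and Sdhaf4 for helping the flavoprotein. Sdhaf3, the least abundant of the 40 genes, gave 69.7, 53.3 and 60.3 normalised reads in the low libraries and 93.3, 95.1 and 70.7 in the high ones, without overlap, and had the highest difference of these factors (0.49, SE 0.31, limma adjusted p = 0.353). Sdhaf2 gave 654, 746 and 664 normalised reads in the low libraries and 834, 933 and 740.5 in the high ones, and Sdhaf4 gave 345, 199 and 282 normalised reads in the low libraries and 270.4, 339 and 396 in the high ones. The groups overlapped for both, at differences of 0.28 and 0.30. Sdhaf1 gave 304, 180.1 and 204 normalised reads in the low libraries and 254, 267 and 209.8 in the high ones, also with overlap, and had the lowest difference of complex II (0.12, SE 0.24, limma adjusted p = 0.803). Of all 100-base stretches in the gene models of Sdhaf1, 68.3% were also found in another annotated gene, so its reads may be shared. The call of Sdha held in all 18 other settings tried. Sdhb was not called without low 2, low 3 or high 3 (adjusted p from 0.0584 to 0.0733). Sdhc stayed called without low 1, and was not called without any of the other 5 libraries (0.0517 to 0.115).

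In complex III, 5 of 9 subunit genes rose and none of 4 assembly factor genes was called. Cyc1, cytochrome c1, which hands electrons to cytochrome c, gave 2192, 1929 and 2114 normalised reads in the low libraries and 2763, 3051 and 3064 in the high ones. The groups did not overlap, and Cyc1 rose by 0.51 (SE 0.10, limma adjusted p = 0.00590). The other nuclear-encoded subunit with a redox centre is Uqcrfs1, the Rieske iron-sulfur protein, which gave 1529, 1311 and 1566 normalised reads in the low libraries and 1636, 1733 and 1769 in the high ones. Its groups did not overlap either, but with the lowest difference of any subunit gene it was not called (0.23, SE 0.11, limma adjusted p = 0.215).

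The core proteins Uqcrc1 and Uqcrc2 form the matrix side of complex III. Uqcrc1 gave 5833, 5779.5 and 5734 normalised reads in the low libraries and 7468, 7679 and 8673 in the high ones, and Uqcrc2 gave 2206, 2085 and 2042 normalised reads in the low libraries and 2573, 2794 and 2719 in the high ones. The groups were apart for both, and the genes rose by 0.45 and 0.35 (SE 0.09 for each; limma adjusted p = 0.00534 and 0.0284). Among 5 small subunits, 2 rose. Uqcr10 gave 488, 274 and 266 normalised reads in the low libraries and 489.9, 647 and 698 in the high ones, with low 1 just under high 1. It rose by 0.88 (SE 0.24, limma adjusted p = 0.0358), the highest difference of complex III. Uqcr11 gave 789, 493 and 599 normalised reads in the low libraries and 806, 1107 and 1038 in the high ones, again with low 1 close to high 1, and rose by 0.66 (SE 0.19, limma adjusted p = 0.0394). The other small subunits, Uqcrb, Uqcrh and Uqcrq, had differences of 0.46, 0.70 and 0.58 and were not called (adjusted p = 0.0950, 0.0503 and 0.124). Of the 100-base stretches of Uqcrc2, 22.7% were also found in another annotated gene, and of those of Uqcrb 15.8%. Uqcrb, Uqcrh and Uqcrq were called once low 1 was left out (adjusted p = 0.0145, 0.00818 and 0.0158). Uqcrh was also called by DESeq2, with TMM scaling, a pseudocount of 5, robust variance and the replicate block, and after both removals of a length and GC trend described below (adjusted p from 0.0158 to 0.0496). Uqcrb was also called after those removals (0.0176 and 0.0294).

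Bcs1l, the ATPase that inserts the Rieske protein, gave 343, 369 and 345 normalised reads in the low libraries and 352, 409 and 370.2 in the high ones. The groups overlapped, and the difference was the lowest of complex III (0.10, SE 0.16, limma adjusted p = 0.752). Uqcc1, Uqcc2 and Uqcc3, which act on cytochrome b early in assembly, differed by 0.19, 0.33 and 0.14 and were not called. Cyc1 and Uqcrc1 kept their calls with each library left out. Uqcrc2, Uqcr10 and Uqcr11 were not called without low 2, low 3, high 2 or high 3 (adjusted p from 0.0727 to 0.120, 0.0889 to 0.150 and 0.113 to 0.149). Uqcr11 was also not called by edgeR with the replicate number as a block (0.0516).

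In complex V, 9 of 15 subunit genes rose, and neither of the 2 assembly factor genes was called. The catalytic head is built of the alpha subunit, from Atp5a1, and the beta subunit, from Atp5b (chr10:128083273-128090391, plus strand). Atp5a1 gave 11263, 11131 and 11351 normalised reads in the low libraries and 14614, 15204 and 16761 in the high ones. The BODIPY-low libraries were close together and all below the BODIPY-high libraries, and Atp5a1 rose by 0.46 (SE 0.08, limma adjusted p = 0.00353). Atp5b gave 16034, 14288 and 15265 normalised reads in the low libraries and 22254, 21658 and 25498 in the high ones, without overlap, and rose by 0.60 (SE 0.09, limma adjusted p = 0.00129). Per kilobase of transcript Atp5b was the most abundant of the 39 genes with a gene model, at a mean level of 7931 in the BODIPY-low group and 12076 in the BODIPY-high group.

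Of the 3 subunits of the central stalk, which turns inside the head, 1 rose. The delta subunit gene Atp5d (chr10:80138632-80145818, plus strand) gave 1493, 1203 and 1513 normalised reads in the low libraries and 1939, 2653 and 2689 in the high ones. Every BODIPY-high library was above the BODIPY-low ones, and Atp5d rose by 0.78 (SE 0.15, limma adjusted p = 0.00529). Atp5c1, for the gamma subunit, differed by 0.38 without overlap and was not called (adjusted p = 0.0529), and Atp5e, for the epsilon subunit, differed by 0.52 with overlap (0.210). Atp5c1 was called without low 1 (0.0258) or high 1 (0.0428), and by DESeq2, with a pseudocount of 5, robust variance and the replicate block (0.0205 to 0.0488).

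All 4 genes of the peripheral stalk rose. Atp5f1 gave 3871, 3105 and 3306 normalised reads in the low libraries and 4339, 4504 and 4344 in the high ones, and Atp5h gave 1482, 900.4 and 1058 normalised reads in the low libraries and 1524, 1803 and 1963 in the high ones. Neither gene had overlapping groups, and they rose by 0.37 and 0.64 (SE 0.10 and 0.17; limma adjusted p = 0.0334 and 0.0327). Atp5j gave 1469, 824 and 995 normalised reads in the low libraries and 1611, 1801 and 1742 in the high ones, and Atp5o, also known as the oligomycin sensitivity protein, gave 1042, 668 and 798 normalised reads in the low libraries and 1216, 1254 and 1473 in the high ones. Both had low 1 as the highest of its group but below every BODIPY-high library, and rose by 0.69 and 0.67 (SE 0.18 and 0.16; limma adjusted p = 0.0291 and 0.0202). These calls were the least steady of complex V. Atp5f1 was called without low 1 only (adjusted p from 0.0515 to 0.149 without another library), Atp5h and Atp5j were not called without low 2, low 3, high 2 or high 3 (0.0762 to 0.129 and 0.0733 to 0.114), and Atp5o was not without low 2, low 3 or high 3 (0.0805 to 0.0931). Of the 100-base stretches of Atp5o, Atp5h and Atp5f1, 30.3%, 22.8% and 16.8% were also found in other annotated genes.

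The membrane subunits Atp5j2, Atp5k and Atp5l, which sit beside the ring and help ATP synthase dimers form, differed by 0.60, 0.50 and 0.64, and 0 of 3 were called. Unadjusted p was below 0.05 for 2 of the 3. Their groups overlapped, with low 1 above low 2 and low 3, as for Atp5k with 169, 75.7 and 66.8 normalised reads in the low libraries and 121, 142 and 142 in the high ones. Without low 1, Atp5j2 and Atp5l were called (adjusted p = 0.0293 and 0.0412), and Atp5j2 also was without high 1 (0.0366) and by DESeq2 (0.0403). Of the 100-base stretches of Atp5l, 69.0% were also found in other annotated genes. The assembly factors Atpaf1 and Atpaf2, chaperones of the beta and alpha subunits, differed by 0.13 and 0.14 and were not called. For Atpaf1, 30.5% of the 100-base stretches were also found in another annotated gene. Atp5s differed by 0.59 without overlap (adjusted p = 0.0822), and was called without high 2 (0.0380) and after the least-squares removal of a length and GC trend (0.0414). Atp5sl gave 606, 579 and 500.2 normalised reads in the low libraries and 481, 583 and 323 in the high ones. The groups overlapped, and Atp5sl had the only negative difference of the 40 genes (-0.32, SE 0.21, limma adjusted p = 0.375).

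The ring that turns in the membrane is made of 1 protein, subunit c, encoded by 3 paralogs, Atp5g1, Atp5g2 and Atp5g3, whose mature protein is the same while their import signals differ. The last 228 coding bases of each gene, which hold the mature protein, are shown because they tell how far reads of the 3 genes can be kept apart. Capitals mark the bases that differ from Atp5g1, in GENCODE M21 transcripts of GRCm38.
Atp5g1: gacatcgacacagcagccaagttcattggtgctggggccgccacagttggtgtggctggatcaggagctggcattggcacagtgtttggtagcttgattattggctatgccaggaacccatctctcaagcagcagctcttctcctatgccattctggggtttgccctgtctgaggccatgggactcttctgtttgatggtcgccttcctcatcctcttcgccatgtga
Atp5g2: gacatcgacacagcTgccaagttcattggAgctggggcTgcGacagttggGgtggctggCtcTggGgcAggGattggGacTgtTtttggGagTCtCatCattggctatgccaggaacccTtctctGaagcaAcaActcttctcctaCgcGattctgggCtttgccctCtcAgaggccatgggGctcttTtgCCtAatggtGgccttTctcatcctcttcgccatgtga
Atp5g3: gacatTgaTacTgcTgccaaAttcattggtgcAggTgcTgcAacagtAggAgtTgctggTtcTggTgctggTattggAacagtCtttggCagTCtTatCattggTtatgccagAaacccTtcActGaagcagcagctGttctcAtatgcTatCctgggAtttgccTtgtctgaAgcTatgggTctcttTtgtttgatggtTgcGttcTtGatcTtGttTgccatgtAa
Atp5g2 differs from Atp5g1 at 34 of these bases (85.1% identity), 32 of them at the last position of a codon, and Atp5g3 differs from Atp5g1 at 46 (79.8%), 41 at last positions. The longest run of bases shared by Atp5g1 and Atp5g3 is 11, and by Atp5g1 and Atp5g2 it is 21, short against reads of 100 bases.

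Atp5g1 (chr11:96068852-96075670, minus strand) gave 1110.3, 722 and 836 normalised reads in the low libraries and 1727, 1965 and 2345 in the high ones. All BODIPY-high libraries were well above all BODIPY-low ones, and Atp5g1 rose by 1.19 (SE 0.17, limma adjusted p = 0.00101), the highest difference of the 40 genes. Atp5g3 (chr2:73908447-73911326, minus strand) gave 1328, 907 and 1108 normalised reads in the low libraries and 1718, 1930.0 and 2187 in the high ones, also without overlap, and rose by 0.81 (SE 0.15, limma adjusted p = 0.00484). Atp5g2 (chr15:102662864-102672352, minus strand) gave 477, 444 and 540.1 normalised reads in the low libraries and 445, 826 and 628 in the high ones. Its groups overlapped, with high 1 level with the BODIPY-low libraries, and it was not called (0.34, SE 0.21, limma adjusted p = 0.344). The count of Atp5g2 is uncertain, because 86.4% of its 100-base stretches are also found in the annotated genes Gm10175 and Gm10231. Of the 100-base stretches of Atp5g1, 5.94% were also found in other annotated genes, and of those of Atp5g3 0%.

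Atp5g1 made up 38.1%, 34.8% and 33.7% of the summed normalised reads of the 3 paralogs in BODIPY-low libraries and 44.4%, 41.6% and 45.4% in BODIPY-high libraries. The shares did not overlap. The means were 35.5% ± 2.30 and 43.8% ± 1.97 (SD, n = 3 each), 8.29 percentage points apart, with an exact two-sided permutation p = 0.1, the smallest this design allows. The share of Atp5g3 was 44.6% ± 0.909 and 42.5% ± 1.65, and that of Atp5g2 19.8% ± 3.02 and 13.7% ± 3.30 (exact permutation p = 0.2 for each). With Atp5g2 left out of the sum, the share of Atp5g1 was 44.3% ± 1.27 and 50.8% ± 0.852 (exact permutation p = 0.1). With values per kilobase the difference for Atp5g1 was 4.41 points, from 12.2% ± 1.17 to 16.6% ± 1.23. Per kilobase the share of Atp5g3 changed direction, from 56.9% ± 2.74 to 59.9% ± 3.82, and that of Atp5g2 went from 30.9% ± 3.87 to 23.5% ± 4.93 (exact permutation p = 0.2 for each). The median length of 2675.5 bases used for Atp5g1 mixes transcripts of very different length, so the shares per kilobase depend on that choice.

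**Figure D3:**
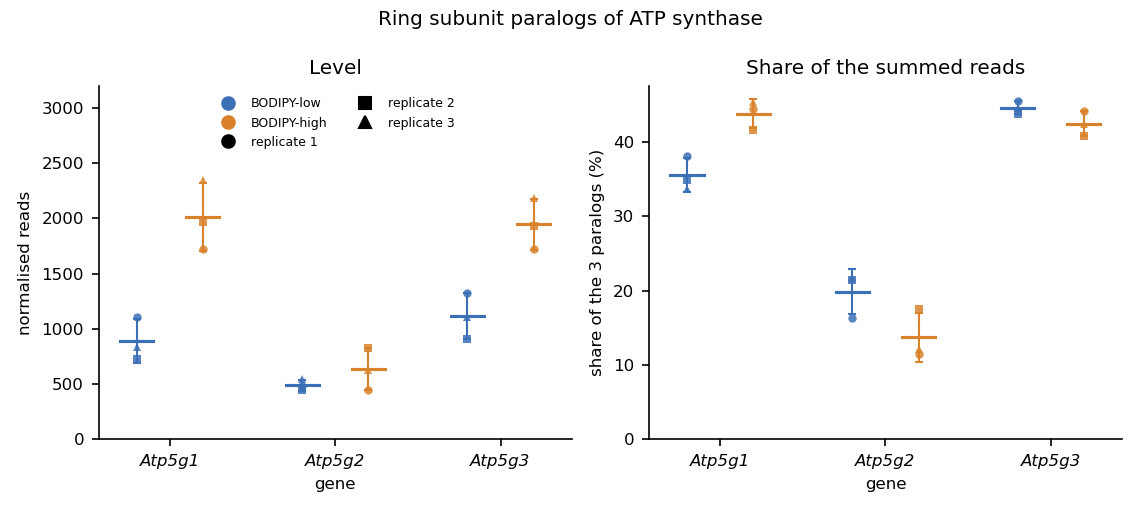
Normalised reads (left) and percent of the summed reads (right) of Atp5g1, Atp5g2 and Atp5g3 in each library. Points are libraries, long bars are means and error bars are SD (n = 3). Atp5g1 and Atp5g3 do not overlap between groups in level, and only Atp5g1 does not overlap in share.

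Within the BODIPY-low group, library low 1 stood further above the other two for short subunit transcripts than for long ones. The level in low 1 was set against the mean of low 2 and low 3 on the log2 scale. Its median was 0.54 for the 15 subunit genes with a median transcript under 1000 bases and 0.12 for the 13 longer ones. Over all tested genes the same medians were 0.23 (1076 shorter genes) and -9.25e-05 (11270 longer genes). Of the shorter subunits 7 rose, with a median group difference of 0.64, and of the longer ones 10 rose, with a median of 0.46. Atp5g1, with the highest difference (1.19), is among the longer ones by a median of 2675.5 bases. That median mixes transcripts of very different length, so its placement depends on that choice. Over all tested genes 11.2% of the shorter ones were called higher, with a median of 0.13, and 9.80% of the longer ones, with a median of -0.02. The rank correlation with length over the 28 subunits was -0.73 for the comparison within the BODIPY-low group and -0.29 for the group difference. These are descriptions over genes that share the same libraries, and the length limit was chosen after the values were seen.

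**Figure D4:**
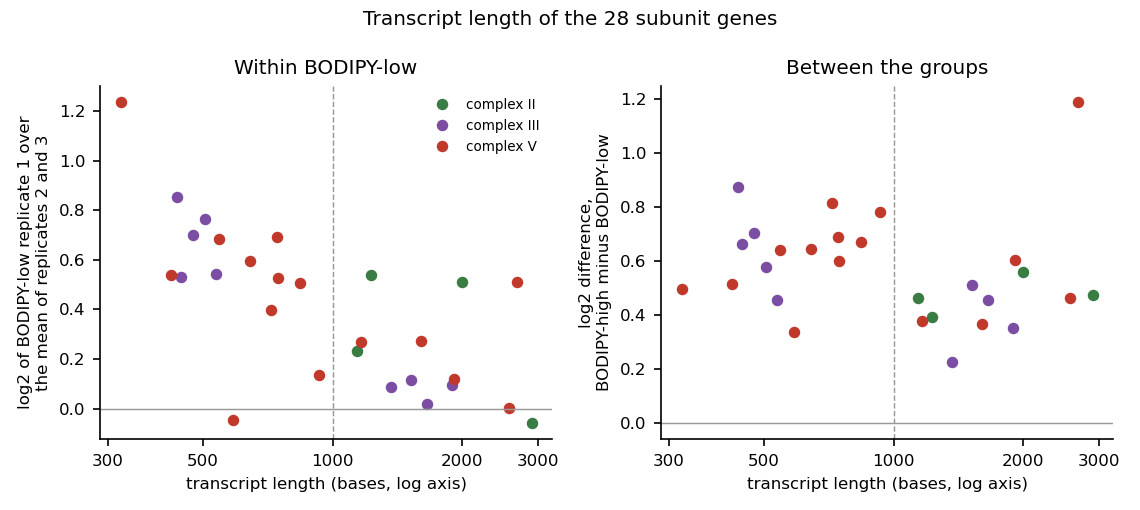
Transcript length of the 28 subunit genes (log axis, bases) against the log2 ratio of low 1 to replicates 2 and 3 (left) and against the log2 difference between groups (right). Each point is a gene, coloured by complex, and the dashed line marks 1000 bases. The ratio on the left is higher for short transcripts, and all group differences on the right are above 0.

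A trend with transcript length and GC content was also removed from each library, in 2 versions, both added after the results were seen. A least-squares version, run first, moved the median of all tested genes to -0.21 and called 1023 higher and 2488 lower. It kept 11 of the 17 calls and ended those of Sdhb (adjusted p = 0.123), Sdhc (0.0665), Cyc1 (0.0804), Uqcrc1 (0.268), Uqcrc2 (0.140) and Atp5f1 (0.171). A robust version centred on the median, added after the results of the first were seen, left the median at -0.02 and kept 17 of the 17. The calls of Sdha, Atp5a1, Atp5b, Atp5d, Atp5g1 and Atp5g3 held in all 18 other settings tried.

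Many respiratory genes are known to be driven by the factors NRF1, the ETS-family factor GABP, YY1 and the oestrogen-related receptors. Of the 40 genes 31 matched a RefSeq promoter (GRCm38.p6), and the 250 bases before the start were searched on both strands for 1 spelling of each site. The NRF1 spelling, GCGC followed by 2 bases of any kind and GCGC again, was found in 8 of 31 (25.8%), against 12.2% of 9813 tested genes with a promoter. CCGGAAG, an ETS spelling, was found in 10 (32.3%, against 15.7%), AAGGTCA, for the oestrogen-related receptors, in 3 (9.68%, against 3.59%), and AAGATGGCG, for YY1, in 1 (3.23%, against 1.44%). A match is a spelling, not a bound site. At least 1 of the 4 spellings was found in 5 of the 12 called genes with a promoter and in 13 of the 19 genes that were not called. RefSeq and GENCODE place some starts differently, and 5 of the 9 windows of 30 bases around the matches in called genes reach into or lie inside the GENCODE gene model. The windows wholly outside the gene models are shown, 4 from called genes (first) and 9 from genes that were not called, because they show the spellings in both. The match is in capitals, read along the gene, and CTTCCGG and TGACCTT are the reverse complements of the ETS spelling and the receptor spelling (ERR).
Atp5g3 ERR chr2:73911360-73911389: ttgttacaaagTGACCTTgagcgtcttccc
Atp5h NRF1 chr11:115420041-115420070: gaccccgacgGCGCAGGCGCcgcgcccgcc
Sdha NRF1 chr13:74350319-74350348: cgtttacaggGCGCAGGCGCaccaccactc
Uqcr11 ETS chr10:80406869-80406898: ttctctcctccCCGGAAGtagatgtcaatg
Atp5e ETS chr2:174464185-174464214: tacggccacagCTTCCGGtagccgctcggc
Atp5l ETS chr9:44920936-44920965: acttcaccgatCTTCCGGaccaacatgaat
Atp5l ERR chr9:44920743-44920772: cacagagaggggcagccTGACCTTggaaat
Bcs1l ETS chr1:74588231-74588260: ggtgggtgtggCCGGAAGtagatgcagcag
Sdhaf3 ETS chr6:6955880-6955909: aatccgggtttCCGGAAGgacaagattcta
Sdhd NRF1 chr9:50603909-50603938: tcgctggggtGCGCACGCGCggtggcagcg
Sdhd ETS chr9:50603877-50603906: ccgtctcctgcCTTCCGGttcacgcttcag
Uqcc2 NRF1 chr17:27133920-27133949: gcgccttagtGCGCACGCGCcctctgcggt
Uqcc3 ERR chr19:8881052-8881081: gaaattgaaccAAGGTCAtttgggagagct
Among these genes Bcs1l and Sdhaf3 are on the plus strand and the others on the minus strand.

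Of 12 regulators of respiratory genes 1 was called, as higher (8.33%). Over all tested genes 9.79% were called higher and 3.52% lower. Ppargc1a, a coactivator of mitochondrial biogenesis, gave 10.3, 4.26 and 12.1 normalised reads in the low libraries and 169.6, 108 and 214 in the high ones. It rose by 4.11 (SE 0.49, limma adjusted p = 0.000342) without overlap, and the choroid plexus markers moved in the same direction at a median of 4.60. Nrf1 and Gabpa, for the factors named above, differed by -0.32 and 0.03 and were not called (adjusted p = 0.106 and 0.927). Esrra and Yy1 differed by 0.26 and -0.02 and were not called either.

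Other genes of oxidative phosphorylation moved in the same direction in part. Of 35 tested complex I subunits 12 rose (34.3%, median 0.47), and of 16 tested nuclear complex IV subunits 9 rose (56.25%, median 0.66). Over all tested genes 9.79% rose, with a median of -0.01. In complex I, Ndufa11 rose by 0.95 and Ndufb10 by 0.89, and both held in all 18 other settings. The other called genes of complex I each lost the call when 1 library was left out. Without high 3 all 10 did, namely Ndufa1, Ndufa8, Ndufa10, Ndufa13, Ndufb2, Ndufb6, Ndufs1, Ndufs7, Ndufv1 and Ndufv3, and all but Ndufv1 and Ndufv3 also did without low 2. Ndufa1, Ndufa8, Ndufa13, Ndufb2, Ndufb6 and Ndufs1 lost it without low 3 as well, Ndufa1, Ndufa8, Ndufa13 and Ndufb2 without high 2, Ndufa8 and Ndufb2 without high 1, and Ndufs1 without low 1 (adjusted p from 0.0514 to 0.181).

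In complex IV, Cox6b2, a form best known from testis, held in all 18 other settings. Cox8b, best known from muscle, held in every setting that tested it. It was too low for the setting with a mean of at least 50. Cox8b gave 9.15, 0 and 2.78 normalised reads in the low libraries and 68.8, 74.8 and 103 in the high ones, and Cox6b2 gave 12.6, 8.52 and 20.4 normalised reads in the low libraries and 66.9, 96.3 and 114 in the high ones. Both were low in BODIPY-low libraries and higher in every BODIPY-high library, with differences of 4.60 and 2.70. Cox4i1, Cox6a1, Cox6c, Cox7a1, Cox7b, Cox8a and Ndufa4 also rose, but each lost the call without high 3. Cox4i1, Cox6a1, Cox7a1, Cox7b and Ndufa4 lost it also without low 2 or low 3, and all 5 but Cox7b without high 2. Cox7a1 and Cox7b lost it without high 1 (adjusted p over all these from 0.0541 to 0.151). With edgeR in place of limma, Ndufa4 of this list and Ndufa8 and Ndufb2 of complex I were not called (adjusted p = 0.0524, 0.0610 and 0.0533).

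Cycs, cytochrome c, which links complex III to complex IV, gave 988, 866 and 984 normalised reads in the low libraries and 1358, 1363 and 1526 in the high ones and rose by 0.58 (SE 0.12, limma adjusted p = 0.00731). Of 11 tested genes of coenzyme Q synthesis 2 rose (18.2%, against 9.79% of all tested genes). Coq7, a hydroxylase of that pathway, rose by 1.02 and held in all 18 other settings, and Coq5 rose by 0.45 but lost the call without low 2, low 3, high 1 or high 3 (adjusted p from 0.0780 to 0.151). Of 8 tested partners of ATP synthase 3 rose (37.5%, against 9.79% of all tested genes), all of them carriers. Slc25a3, which imports phosphate, rose by 0.50, and the ADP/ATP exchangers Slc25a4 and Slc25a5 by 0.95 and 0.42. Slc25a5 lost the call without low 2 or low 3 (0.0644 and 0.0658). Atpif1, the inhibitor of ATP synthase, differed by 0.34 and was not called (adjusted p = 0.270). None of the 5 further partners of complex III assembly was called in limma. Of these, 1 had an unadjusted limma p below 0.05, against 27.1% of all tested genes.

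Cristae are the folds of the inner membrane that hold these complexes. Of 11 tested genes of cristae organisation 6 rose (54.5%, against 9.79% of all tested genes), with a median of 0.35 over the list. Chchd6, of the MICOS complex that shapes cristae junctions, rose by 1.26 and held in all 18 other settings. Immt, Chchd3, Apoo, Phb and Phb2 rose by 0.39, 0.63, 1.90, 0.45 and 0.35, but each lost the call without low 2 and again without high 3. Immt, Apoo, Phb and Phb2 did so also without low 3, Apoo and Phb2 without high 2, Apoo without high 1 and Phb2 without low 1 (adjusted p from 0.0550 to 0.167). The least-squares removal of the length and GC trend ended the calls of Ndufa8, Ndufa10, Ndufa13, Ndufb2, Ndufs1, Ndufs7, Ndufv1, Coq5, Slc25a5, Immt, Phb and Phb2 (adjusted p from 0.0514 to 0.801), and the robust one those of Ndufa8, Ndufs7 and Phb2 (0.0582, 0.0605 and 0.250). The least-squares version also took out the mean level of each library, with a median of -0.21 over the genes tested, against -0.02 for the robust one.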

How the data were processed

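The members and gene lists were chosen with earlier results of these data known. Per the series' design text and the submitters' processing notes, the authors made cDNA with SmartSeq v4 and libraries with Nextera XT, checked reads with FastQC 0.11.4, mapped them to mm10 (mm9 is listed too) and counted reads per gene with STAR 2.5.3a, and used DESeq2. Which strand column and annotation were counted is not stated in the sources used, so reads of genes that overlap on opposite strands cannot be separated. The authors' deposited table holds a signal, the read count of a gene over the size factor of the library. Reads were recovered as whole numbers for 100% of values, within 0.01 read, and libraries held 24982215 to 34899425 reads.

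Groups came from the sample labels, and all 6 libraries were used. Genes with a mean of at least 10 were tested (12821 of 16179) on log2(value + 1), a scale that understates changes of low genes, by a two-sided limma test with a trended variance (limma 3.58.1, R 4.3.3) and Benjamini-Hochberg adjustment over all tested genes. The count tests edgeR 4.0.16 and DESeq2 1.42.0 were run on recovered reads. Other settings were pseudocounts of 0.5 and 5, no filter, a mean of at least 50, TMM scaling, robust variance, the replicate number as a block, and each library left out. Settings added after seeing the data were edgeR with the block, 2 versions of removing a length and GC trend, and the ring share without Atp5g2. Per-library values are printed for each called gene, all of complex II, the ring paralogs and the extremes of each complex, and for a few others chosen after their values were seen: Uqcrfs1, Atp5k, Ppargc1a, Cox8b, Cox6b2 and Cycs. Pathway genes are named where called, besides the regulators Nrf1, Gabpa, Esrra and Yy1, and Atpif1, which were added by name. Coordinates, lengths and shared 100-base stretches come from GENCODE M21 (GRCm38), which matched 39 of the 40 genes. Promoters come from RefSeq (GRCm38.p6).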

Additional observations from a re-analysis of the deposited data

How the results depend on the processing

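With 1 library left out, calls over all genes ran from 908 to 1648, of the 40 genes from 8 to 24, of complex II from 1 to 4, of complex III from 2 to 8, of complex V from 5 to 12, of subunits from 8 to 24 and of assembly factors from 0 to 0. Of the 17 called genes, 8 kept the call in all 6 such fits; 17, 8 and 8 did without BODIPY-low replicate 1, 2 and 3, and 15, 10 and 8 without BODIPY-high replicate 1, 2 and 3. The ring share of Atp5g1 then differed by 7.35 to 9.57 points. All 17 were also called by edgeR, by DESeq2 and by limma with the replicate block. With edgeR and the block together, chosen after seeing the data, 16 were, and Uqcr11 was not (adjusted p = 0.0516).

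Removing the length and GC trend was tried in 2 versions, both chosen after seeing the data, and they gave different answers. Both used the 12346 tested genes with a gene model, which leaves out Atp5sl. By least squares, the first one run, 3511 genes were called (1023 higher, 2488 lower) and 14 of the 39 members, with 1, 4 and 9 in complexes II, III and V. That fit also took out the mean level of each library, and the median of these genes fell to -0.21. The robust version centred on the median was added because of this shift, but after the effect of least squares on the members had been seen. The robust version called 1703 genes (1202 higher, 501 lower) and 19 of the 39 members, with 3, 7 and 9 by complex. Neither version is preferred here.

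Differences that changed sign, none of them called, were those of Sdhaf1 (-0.039 without BODIPY-low replicate 2, from -0.039 to 0.34 over the fits that leave out 1 library, and -0.081 by least squares), Uqcc3 (-0.087 without BODIPY-low replicate 2, from -0.087 to 0.27, -0.067 by least squares and -0.0064 by the robust version), Atpaf2 (-0.045 without BODIPY-low replicate 1, from -0.045 to 0.26, and -0.093 by least squares), and, by least squares, Bcs1l (-0.13), Atpaf1 (-0.072) and Uqcc1 (-0.022). Per kilobase, the ring share of Atp5g1 differed by 4.41 points. By least squares the median of the tested genes with a gene model was itself -0.21, and each least-squares difference given here stayed above it. Beyond that shift, the cause of these changes was not tested. Libraries of the same number had correlated deviations from their group means (r = 0.110, 0.144 and 0.0728), and each correlated best with its own number. Pairs of different numbers ran from r = -0.115 to 0.00158. The labels state no pairing, and the main fit did not pair the libraries. A pairing was not excluded. The replicate block gave 2211 calls over all genes and 20 of the 40, and for the ring share an exact sign permutation p = 0.25.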
